A study of Mus musculus with 6 samples.

Results

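Brain pericytes were taken from 6 single-cell RNA libraries of mouse brain as the cells selected on measured values of 8 pericyte genes. A member had at least 1 UMI (unique molecular identifier, a tag that counts captured RNA molecules) of at least 3 of Atp13a5, Vtn, Abcc9, Pdgfrb, Kcnj8, Notch3, Art3 and Slc38a11. It had none of Myh11 or Cnn1, genes of smooth muscle, and fewer than 2 of Cldn5, P2ry12, Kl, Col1a1 and Dcn, genes of endothelium, microglia, choroid plexus and fibroblasts. This rule took 607 of 94144 cells, or 0.645% of those kept after cutoffs of 500 UMIs, 300 detected genes and a mitochondrial share of 15%. The cells came from 3 groups of 2 libraries: TRPM2 Mg KO with bilirubin (131 and 30 members in replicates 1 and 2), wild type (WT) with bilirubin (166 and 30 members) and WT with vehicle (130 and 120 members). All were droplet libraries of freshly dissociated brain cells. TRPM2 is a calcium-permeable cation channel, and bilirubin is the breakdown product of haem that the liver clears. The labels do not explain "Mg", and the design of the knockout, strain, age, sex, brain region, dose and duration are not given in the sources used here. No knockout with vehicle was analysed here, so the effect of the knockout without bilirubin cannot be told apart from its effect with bilirubin. The labels do not tell whether the 2 libraries of a group hold different animals. The p-values therefore weigh the groups only against the spread among libraries, part of which can be technical.

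Pericytes are mural cells that lie within the basement membrane of brain capillaries and share it with the endothelium. Endothelial PDGF-B recruits them through the receptor Pdgfrb, and Notch3 keeps up their mural identity. They help to maintain the blood-brain barrier, and their ATP-sensitive potassium channel, made of Kcnj8 and Abcc9, sets capillary tone. In mouse brain they are set apart from smooth muscle by low contractile genes and by transporters such as Atp13a5 and Slc38a11.

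The libraries held 4137 to 24309 barcodes, and 4134 to 24306 cells were kept in each. Knockout replicate 2 and WT bilirubin replicate 2 gave 30 members each and stand apart in depth: member UMIs summed to 434709 and 96934 in the knockout, 482620 and 67646 in WT bilirubin, and 201557 and 291007 in WT vehicle. One cell held 22.0% of the member UMIs of WT bilirubin replicate 2 and 13.4% of those of knockout replicate 2, against at most 6.95% in the other libraries. The median member had 2135 and 1980 UMIs in the knockout, 2096 and 1280.5 in WT bilirubin, and 1336 and 1742 in WT vehicle, and the median kept cell had 1153 to 2075. Any 2 libraries shared 12 to 141 kept barcodes, and no member barcode was shared. All levels below are CPM, a gene's UMIs scaled to 1000000 UMIs of the summed members (or of the summed other cells), and all intervals and floors cover counting error only.

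The members were defined by the 8 rule genes, so their levels are a description. Vtn, a secreted matrix protein, was found in 92.4% of members, the receptor Pdgfrb in 73.1%, the P-type ATPase Atp13a5 in 65.6% and the channel subunit Abcc9 in 49.6%. Notch3 was found in 39.0%, the channel pore Kcnj8 in 34.3%, the ADP-ribosyltransferase family member Art3 in 33.6% and the amino acid transporter Slc38a11 in 26.0%. Among the other cells, Vtn was found in 6.55% to 25.8% by library, and Slc38a11 in 0.222% to 1.54%. Members with exactly 3 of the 8 genes made up 47.1%, those with 4 made up 19.8%, and 8 members held all 8 genes. Vtn and Pdgfrb were found together in 411 members, and Kcnj8 and Slc38a11 in 52.

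Pericyte genes that the rule did not use were far above their level in the other cells, as the label has it. Rgs5, a regulator of G-protein signalling, had 258 to 1050 CPM in the members of the 6 libraries, against 13.1 to 102 CPM in all other cells. Higd1b, a small mitochondrial protein, had 155 to 488 CPM in members against 2.73 to 30.6 CPM. Ndufa4l2, a mitochondrial protein induced by low oxygen, had 113 to 307 CPM against 2.00 to 25.2 CPM, and Cox4i2, a cytochrome oxidase subunit, had 92.8 to 207 CPM against 2.16 to 16.7 CPM. For each of these 4 genes the lowest member level lay above the highest level of the other cells. The proteoglycan Cspg4 (NG2) had 61.9 to 310 CPM in members against 2.85 to 8.60 CPM. At least 1 UMI of Rgs5, Higd1b, Ndufa4l2 or Cox4i2 was present in 68.7% and 66.7% of knockout members, 71.1% and 66.7% of WT bilirubin members, and 51.5% and 59.2% of WT vehicle members. In the other cells that share was 23.2% and 39.1% in the knockout, 22.3% and 3.98% in WT bilirubin, and 12.8% and 12.2% in WT vehicle. The other cells include the cells just short of the rule and smooth-muscle cells.

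The rule's threshold cut through a gradient. The 4 markers outside the rule summed to 439 CPM in the 286 members with 3 rule genes, just inside, and to 207 CPM in the 1123 cells with 2 rule genes that otherwise passed, just outside. Members with 4 rule genes had 685 CPM and those with 5 or more had 2164 CPM, against 82.6 CPM in cells with none. Thus the 201 members with 5 or more genes carried the clearest pericyte profile, and in those with 3 the profile was weaker.

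**Figure D1:**
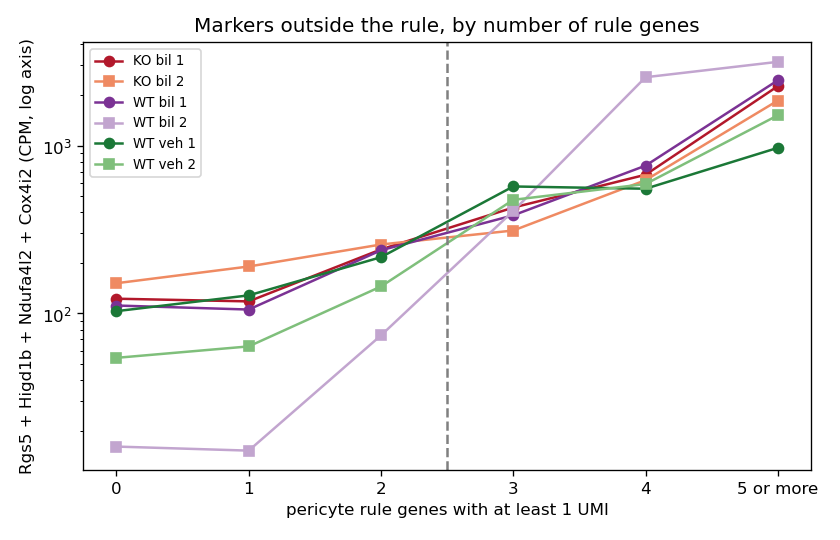
Summed CPM of Rgs5, Higd1b, Ndufa4l2 and Cox4i2 (log axis) by the number of the 8 rule genes detected, in cells that passed the rest of the rule, with 1 line per library (KO bil: TRPM2 Mg KO with bilirubin; WT bil: WT with bilirubin; WT veh: WT with vehicle). The dashed line marks the threshold of 3 genes. The level was 969 to 3152 CPM at 5 or more genes and 16.1 to 151 CPM at none.

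The genes outside the rule that stood furthest above the other cells were listed after their values were seen. Of the 25 with the largest ratio of mean CPM, at least 50 UMIs and a higher level in all 6 libraries, 12 were in the list of 30 further pericyte genes used below, and 13 were not. The UDP-glucose receptor P2ry14 had 37.8 to 118 CPM in members and 1.73 to 3.05 CPM in other cells. The calcium-activated chloride channel Ano1 had 41.3 to 222 CPM against 1.63 to 4.94 CPM. S1pr3, a receptor for sphingosine-1-phosphate, had 55.0 to 177 CPM against 1.89 to 5.73 CPM. The endothelin receptor Ednra had 41.3 to 148 CPM against 3.53 to 7.02 CPM, and the thromboxane receptor Tbxa2r had 20.6 to 54.6 CPM against 0.666 to 3.82 CPM. Smooth-muscle RNA was present as well. The 15 smooth-muscle genes summed to 1.57 to 2.44 times their level in the other cells of the same library. The rule allows neither Myh11 nor Cnn1 of this list in a member, so the ratio is in part set by it. Acta2, smooth-muscle actin, had 52.9 and 196 CPM in knockout members, 126 and 44.3 in WT bilirubin members and 104 and 17.2 in WT vehicle members, against 13.6 to 88.6 CPM in other cells.

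RNA of other cell types was present in nearly all members. Few held fewer than 2 markers of each of the endothelial, microglial, fibroblast, choroid plexus, oligodendrocyte and neutrophil lists. They were 1 and 0 members in the knockout, 1 and 5 in WT bilirubin, and 2 and 0 in WT vehicle. By list, the summed level in members over that in other cells was 0.523 to 0.986 for 11 microglial genes, 0.854 to 1.07 for 13 neuronal genes, 0.575 to 1.17 for 10 choroid plexus genes and 0.101 to 1.08 for 5 erythroid genes. The neuronal genes summed to 2949 and 4127 CPM in knockout members, 2232 and 2084 in WT bilirubin members, and 18625 and 5436 in WT vehicle members. The 12 endothelial genes summed to 6800 and 2187 CPM in the knockout, 3665 and 2897 CPM in WT bilirubin, and 1106 and 649 CPM in WT vehicle. Fibroblast genes had 1159 and 1021 CPM in the knockout, 990.4 and 843 in WT bilirubin, and 1171 and 838 in WT vehicle. The rule limits Cldn5 of the endothelial list and Dcn of the fibroblast list, so these sums are in part set by it. The source of the RNA of other cell types was not tested. Mitochondrial UMIs made up 3.40% and 3.16% of member UMIs in the knockout, 4.83% and 0.850% in WT bilirubin, and 0.975% and 0.882% in WT vehicle. All kept cells had 3.71% and 3.98% in the knockout, 4.76% and 0.779% in WT bilirubin, and 1.07% and 0.923% in WT vehicle.

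Trpm2 itself had few UMIs in the summed pericytes. It had 2 and 0 UMIs in knockout members, 0 and 0 in WT bilirubin members and 4 and 2 in WT vehicle members, and it did not pass the filter on low counts. A count of 0 allows up to 30.9 CPM in knockout replicate 2 and up to 6.22 and 44.3 CPM in WT bilirubin (3 UMIs each). Among all other cells it had 6.63 and 4.61 CPM in the knockout, 5.16 and 8.24 CPM in WT bilirubin, and 11.7 and 6.42 CPM in WT vehicle. In WT vehicle members 3 UMIs equal 14.9 and 10.3 CPM, so the counts do not place pericytes below the other cells. A difference in pericytes was not detectable at this depth, and since the deleted part of the gene is not given, these UMIs do not check the label.

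Pericytes formed 0.349% to 0.805% of kept cells by library. Both knockout libraries lay above both vehicle libraries by this share and below them among vascular cells, and 2 against 2 libraries cannot give a small p. They made up 0.805% (95% exact binomial interval 0.673 to 0.954) and 0.726% (0.490 to 1.03) of kept cells in the knockout. In WT bilirubin the shares were 0.797% (0.681 to 0.927) and 0.349% (0.236 to 0.498), and in WT vehicle 0.650% (0.543 to 0.771) and 0.494% (0.409 to 0.590). The WT bilirubin libraries lay on both sides of the vehicle libraries, and their mean was 1.00 times that of vehicle (0.573% ± 0.317 and 0.572% ± 0.110, SD, n = 2 each). The knockout mean of 0.765% ± 0.0561 was 1.34 times that of WT bilirubin and 1.34 times that of WT vehicle. The two-sided exact permutation p was 1 for WT bilirubin against vehicle, 0.667 for the knockout against WT bilirubin and 0.333 for the knockout against vehicle, where 0.333 is the smallest p that 2 against 2 libraries allow. In cells of at least 1000 UMIs, each thinned to 1000, the knockout and vehicle libraries overlapped. The shares were then 0.629% and 0.538% in the knockout and 0.595% and 0.288% in WT vehicle. Without thinning, cells of at least 1000 UMIs overlapped too, with 0.936% and 0.807% against 0.827% and 0.505%. Among vascular cells (members, endothelial cells and smooth-muscle cells by marker gates) the pericyte share was 3.92% and 4.14% in the knockout, 4.63% and 12% in WT bilirubin, and 12.7% and 8.66% in WT vehicle. By this denominator the knockout mean was 0.485 times that of WT bilirubin and 0.378 times that of vehicle, the opposite direction. Endothelial cells by the gate made up 19.2% and 16.4% of kept cells in the knockout, 15.7% and 2.46% in WT bilirubin, and 4.12% and 5.04% in WT vehicle, and its part in the vascular share was not tested.

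**Figure D2:**
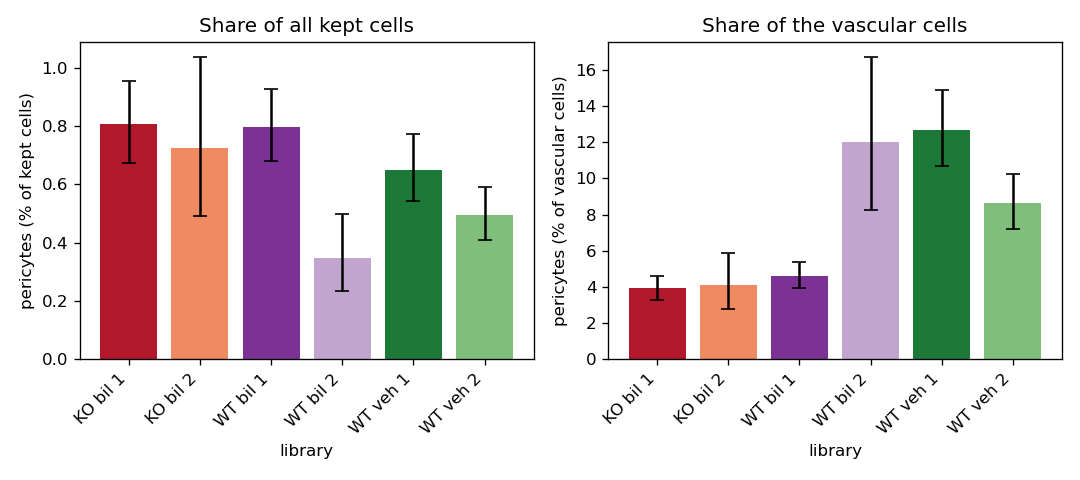
Pericytes as a percentage of all kept cells (left) and of vascular cells (right) in each library, with 95% exact binomial intervals for counting error; labels as in the plot of markers by rule genes. Left, the libraries sit between 0.349% and 0.805% with the groups overlapping for WT bilirubin; right, both knockout libraries (3.92% and 4.14%) and WT bilirubin replicate 1 (4.63%) sit below the other libraries.

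The first comparison asked what bilirubin did in wild-type pericytes. Of 5065 genes tested with edgeR's quasi-likelihood test on summed UMIs, 9 passed a Benjamini-Hochberg adjusted p of 0.05 (0.178%). Of these 7 were higher with bilirubin (0.138%) and 2 lower (0.0395%), and 359 had an unadjusted p under 0.05. The higher genes were 5 of the neutrophil list (S100a8, S100a9, Ngp, Camp and Lcn2), the endothelial tight junction gene Cldn5 and the secretoglobin Scgb3a1. The lower genes were Bc1, a non-coding RNA of neurons, and Cx3cr1, the fractalkine receptor of microglia. None of the 9 is a pericyte gene by the lists used. DESeq2's Wald test called 11 genes, and 5 of them were shared. It gave no adjusted p for 3535 of the 5065 genes, so the overlap does not cover the same genes.

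The neutrophil genes were spread over many members of WT bilirubin replicate 1 at low counts, and over few members of replicate 2. In members the 10 genes of the neutrophil list summed to 479 and 20992 CPM with bilirubin and 119 and 117 CPM with vehicle. They were higher with bilirubin in all other cells too, with 1289 and 4925 CPM against 274 and 580 CPM. In WT bilirubin replicate 1 the members lay below the other cells. S100a9, a subunit of calprotectin, had 149 and 13186 CPM in WT bilirubin members, against 44.7 and 48.1 CPM in WT vehicle members. Its partner S100a8 had 58.0 and 3932 CPM with bilirubin, against 9.92 and 20.6 CPM with vehicle. The groups did not overlap, but WT bilirubin replicate 2 was high through 1 member. That member had 14884 UMIs and 3 of the rule genes, and it held 99.1% of the neutrophil-gene UMIs of that library's members. In WT bilirubin replicate 1, S100a9 was found in 46 of 166 members, S100a8 in 24, Lcn2 in 21, Camp in 13 and Ngp in 7, against 9, 2, 0, 1 and 0 of 130 members in WT vehicle replicate 1. That vehicle library is the shallower one, with 201557 member UMIs against 482620 in WT bilirubin replicate 1. Members of WT vehicle replicate 2 held UMIs of both Lcn2 and Ngp. The log2 fold change was 6.99 ± 1.04 (SE, adjusted p = 0.000349) for S100a9 and 6.73 ± 1.04 (adjusted p = 0.00035) for S100a8. Ngp, a neutrophil granule protein, had 52 UMIs in WT bilirubin members and 1 in WT vehicle members, a ratio of 46.5 (95% counting interval 7.99 to 1873, adjusted p = 0.00421). Camp, the antimicrobial cathelicidin, had 57 UMIs with bilirubin and 2 with vehicle, a ratio of 25.5 (6.75 to 216, adjusted p = 0.0103), and 1 member of WT bilirubin replicate 1 held 68.6% of its UMIs there. Lcn2, an acute-phase protein that binds bacterial siderophores, had 46 UMIs with bilirubin and 2 with vehicle, a ratio of 20.6 (5.38 to 175, adjusted p = 0.00893). With members of at most 10000 UMIs, which leaves out 14 members in all, 3 genes were called (Bc1, Cldn5 and Scgb3a1).

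Scgb3a1 had 85.0 and 73.9 CPM in WT bilirubin members and no UMI in either WT vehicle library, so that it was at least 13.7-fold higher (against a floor of 3 UMIs over the group, adjusted p = 0.00602). The 46 UMIs lay in 21 and 2 members. In other cells it had 40.0 and 12.8 CPM with bilirubin and 2.79 and 0.919 CPM with vehicle. Cldn5, which the rule allows in a member if it is the only gene of its set, had 398 and 148 CPM with bilirubin and 29.8 and 24.1 CPM with vehicle (log2 fold change 3.35 ± 0.64). Since the rule used Cldn5, its change is a description. It was found in 44 and 4 members with bilirubin and in 6 and 6 with vehicle. In other cells Cldn5 had 242 and 40.3 CPM with bilirubin, against 86.3 and 70.4 CPM with vehicle. With members that hold none of the 5 excluded genes, no gene was called. That set lacks Cldn5 by construction, and it holds only 67 and 18 members with bilirubin and 96 and 66 with vehicle.

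Both lower genes were lower in the other cells too. Bc1 had 1264 and 1197 CPM in WT bilirubin members, against 16387 and 3897 CPM in WT vehicle members (log2 fold change -3.14 ± 0.62, adjusted p = 0.00893). The other cells of the same libraries had 1240 and 1118 CPM with bilirubin and 18048 and 3795 CPM with vehicle, nearly the same values. Cx3cr1 had 35.2 and 29.6 CPM in WT bilirubin members and 273 and 141 CPM in WT vehicle members (log2 fold change -2.66 ± 0.54, adjusted p = 0.0105), and 85.1 and 140 CPM against 297 and 221 CPM in the other cells. All 11 microglial genes tested had negative fold changes in members (median log2 -0.82) and so did all 9 neuronal genes (median -1.47).

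Without vehicle replicate 1, Bc1 and Cx3cr1 were no longer among 14 called genes. Without vehicle replicate 2, Camp was lost and 17 were called. Without WT bilirubin replicate 1, 15 genes were called, and Camp, Cldn5, Cx3cr1 and Scgb3a1 were not among them. Without WT bilirubin replicate 2, 21 were called, without Lcn2, Ngp, S100a8 and S100a9. Leaving out either knockout library, in neither group compared, also raised the number of calls. The knockout libraries enter the low-count filter, the scaling and the estimate of the spread.

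Several of the next genes by p are known from endothelium. Pltp, phospholipid transfer protein, had 597 and 636 CPM with bilirubin and 149 and 99.7 CPM with vehicle (log2 fold change 2.20 ± 0.53, adjusted p = 0.0754). The surface proteins Ly6a (700 and 429 against 119 and 120 CPM) and Ly6c1 (657 and 488 against 144 and 117 CPM), the peptidoglycan recognition protein Pglyrp1 (265 and 414 against 89.3 and 37.8 CPM) and the adhesion receptor Adgrf5 (82.9 and 192 against 34.7 and 13.7 CPM) had log2 values of 2.05 to 2.29. Hexokinase Hk2 had 39.4 and 44.3 CPM with bilirubin and 159 and 155 CPM with vehicle (log2 -2.03 ± 0.50, adjusted p = 0.0798). Tensin Tns2, an adaptor of focal adhesions, had 78.7 and 133 CPM against 19.8 and 10.3 CPM (log2 2.57 ± 0.64, adjusted p = 0.0871). None of these 7 genes was called.

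Pericyte genes themselves were not called with bilirubin. Rgs5 had 617 and 1050 CPM in WT bilirubin members, against 268 and 302 CPM in WT vehicle members, a log2 fold change of 1.40 ± 0.50 (adjusted p = 0.499). Higd1b had 244 and 488 CPM with bilirubin and 164 and 155 CPM with vehicle (1.01 ± 0.49, adjusted p = 0.703), and Rgs4 122 and 473 CPM against 119 and 110 CPM (1.07 ± 0.54, adjusted p = 0.711). Of the 30 further pericyte genes 26 were tested, 0 passed in either direction, and 25 had a positive fold change with a median log2 of 0.59, against a median of 0.00055 over all genes. The same genes summed to 4500 and 6859 CPM with bilirubin and 3582 and 2742 CPM with vehicle. Members with 5 or more rule genes were 73 of 166 and 14 of 30 with bilirubin, against 34 of 130 and 24 of 120 with vehicle, and the part of this mixture in the fold changes was not tested.

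For the 8 rule genes, whose level the selection touches, the values are given without a test. Vtn had 2928 and 1702 CPM in knockout bilirubin members, 2791 and 3932 CPM in WT bilirubin members and 2223 and 1691 CPM in WT vehicle members. Pdgfrb had 504 and 392 CPM in the knockout, 661 and 961 CPM in WT bilirubin and 620 and 519 CPM in WT vehicle. Both were highest in WT bilirubin replicate 2, and the groups overlapped for Vtn. Atp13a5 had 584 and 382 CPM in the knockout, 564 and 946 CPM in WT bilirubin and 566 and 485 CPM in WT vehicle. Abcc9 had 329 and 268 CPM in the knockout, 307 and 724 CPM in WT bilirubin and 432 and 275 CPM in WT vehicle, and its partner Kcnj8 had 223 and 103 CPM in the knockout, 193 and 237 CPM in WT bilirubin, and 253 and 137 CPM in WT vehicle. The channel pair did not separate the groups. Notch3 had 159 and 165 CPM in the knockout, 228 and 281 CPM in WT bilirubin and 318 and 131 CPM in WT vehicle. Art3 had 212 and 92.8 CPM in the knockout, 213 and 237 CPM in WT bilirubin, and 198 and 165 CPM in WT vehicle, and Slc38a11 had 161 and 51.6 CPM in the knockout, 145 and 118 CPM in WT bilirubin, and 134 and 89.3 CPM in WT vehicle. Knockout replicate 2 was the lowest library for 6 of the 8 genes.

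**Figure D3:**
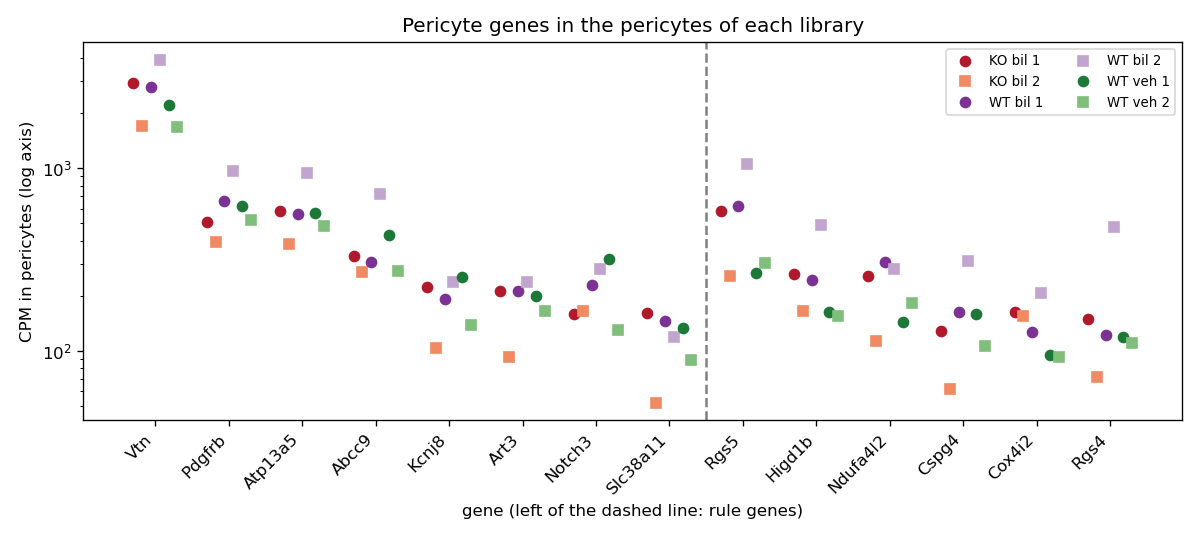
CPM in the summed pericytes of each library (log axis) for the 8 rule genes (left of the dashed line) and 6 pericyte genes outside the rule; KO bil, WT bil and WT veh as before, circles for replicate 1 and squares for replicate 2. WT bilirubin replicate 2 lies highest for most genes (1050 CPM for Rgs5), and the libraries of a group lie as far apart as the groups for many genes.

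With 0.178% of all genes called with bilirubin, lists of this size would hold 0 calls if they were like the rest, and most held 0. Of 22 contractile and channel genes tested, 0 passed (median log2 0.19): Ano1 had 97.4 and 222 CPM with bilirubin and 84.3 and 68.7 CPM with vehicle, caldesmon Cald1 had 599 and 828 CPM against 407 and 430 CPM, and the cGMP phosphodiesterase Pde5a had 53.9 and 29.6 CPM against 34.7 and 13.7 CPM. Of 22 genes of signalling with the endothelium 0 passed (median 0.28). This list overlaps the rule genes, so its count and median are in part a description. There the Notch target Hes1 had 131 and 237 CPM with bilirubin and 114 and 58.4 CPM with vehicle, the TGF-beta receptor Tgfbr1 had 66.3 and 118 CPM against 159 and 131 CPM, and the BMP receptor Acvrl1 had 64.2 and 44.3 CPM against 29.8 and 17.2 CPM. Of 19 basement membrane genes 0 passed (median 0.64), with fibronectin Fn1 at 133 and 88.7 CPM against 64.5 and 41.2 CPM, nidogen Nid1 at 89.1 and 118 CPM against 54.6 and 41.2 CPM, and the laminin chain Lamc3 at 70.4 and 118 CPM against 34.7 and 41.2 CPM. Of 16 transporters 0 passed (median 0.33). Among them the glucose transporter Slc2a1, which brain endothelium expresses strongly, had 114 and 207 CPM with bilirubin and 64.5 and 24.1 CPM with vehicle, and the monocarboxylate transporter family member Slc16a12 had 78.7 and 88.7 CPM against 49.6 and 37.8 CPM.

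Inflammatory and stress lists read likewise. Of 11 inflammatory mediators tested 0 passed (median 0.26): the chemokine Ccl2 had 22.8 and 0 CPM with bilirubin and 99.2 and 30.9 CPM with vehicle, the transcription factor Cebpd had 114 and 177 CPM against 79.4 and 41.2 CPM, and Zfp36, which destabilises cytokine mRNAs, had 157 and 163 CPM against 104 and 30.9 CPM. Of 8 genes of the IL-6 and acute-phase list 2 passed, Lcn2 and Scgb3a1, both described above. Of 9 interferon genes 0 passed (median 0.08). There the membrane protein Ifitm3 had 516 and 591 CPM with bilirubin and 189 and 158 CPM with vehicle (log2 1.56 ± 0.49, adjusted p = 0.407), and the class I gene H2-K1 had 176 and 222 CPM against 129 and 96.2 CPM. Of 13 genes of haem, bilirubin and redox handling 0 passed (median -0.07), with ferritin Fth1 at 11728 and 6150 CPM against 14185 and 11701 CPM and the redox regulator Nfe2l2 at 80.8 and 73.9 CPM against 139 and 75.6 CPM. Of 21 immediate early genes 0 passed (median 0.30). Atf3, a stress-induced transcription factor, had 178 and 103 CPM with bilirubin and 427 and 254 CPM with vehicle, and Ier3 had 379 and 118 CPM against 79.4 and 82.5 CPM. Of 10 glucocorticoid targets and of 18 hypoxia and glycolysis genes 0 passed (medians -0.04 and 0.26); the cell-cycle inhibitor Cdkn1a had 116 and 118 CPM against 49.6 and 68.7 CPM. Of 13 mitochondrially encoded genes 0 passed (median 1.36), with mt-Cytb at 9662 and 1257 CPM in bilirubin members and 967 and 1265 CPM in vehicle members. The other cells had 9360 and 1304 CPM of mt-Cytb with bilirubin and 1077 and 1246 CPM with vehicle.

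The second comparison asked how pericytes of the knockout differed from those of wild type under bilirubin. Of 5065 genes 4 passed (0.079%), of which 0 were higher (0%) and 4 lower in the knockout (0.079%): S100a8, S100a9, Ngp and Camp. In all, 89 genes had an unadjusted p under 0.05, and DESeq2 called 0 genes, with 24 at an unadjusted p under 0.05. S100a9 had 50.6 and 82.5 CPM in knockout members, against 149 and 13186 CPM in WT bilirubin members (log2 fold change -6.66 ± 1.03, adjusted p = 0.000427). S100a8 had 9.20 and 20.6 CPM in the knockout against 58.0 and 3932 CPM in WT bilirubin (-7.24 ± 1.11, adjusted p = 0.000427). Ngp had no UMI in the knockout and 52 in WT bilirubin, at least 16.7-fold lower (adjusted p = 0.00105). Camp had 1 UMI in the knockout and 57 in WT bilirubin, a ratio of 0.0182 (95% counting interval 0.000452 to 0.105, adjusted p = 0.0065). In all other cells the 10 genes of the neutrophil list summed to 500 and 981 CPM in the knockout and 1289 and 4925 CPM in WT bilirubin. All 4 called genes are neutrophil genes of the kind that the member with 14884 UMIs carried, and both comparisons share the WT bilirubin libraries. For Camp, another member, of WT bilirubin replicate 1, held most of that library's UMIs, as given above. With members of at most 10000 UMIs 0 genes were called, and without WT bilirubin replicate 2 only Camp. Without WT bilirubin replicate 1, 7 genes were called, without Camp. Without knockout replicate 1, Ngp and Camp were lost among 4 calls, and without knockout replicate 2, 10 genes were called. Leaving out either vehicle library, in neither group compared, also raised the number of calls. The vehicle libraries enter the low-count filter, the scaling and the estimate of the spread.

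Cebpb, a transcription factor of inflammatory responses, had 16.1 and 10.3 CPM in knockout members, 87.0 and 118 CPM in WT bilirubin members and 59.5 and 37.8 CPM in WT vehicle members. The knockout libraries lay below all others (log2 against WT bilirubin -2.67 ± 0.63, adjusted p = 0.142). The other cells showed similar levels, with 14.4 and 13.5 CPM in the knockout, 94.7 and 78.5 CPM in WT bilirubin and 49.3 and 37.8 CPM in WT vehicle. The knockout change in pericytes minus that in the other cells was 0.03 ± 0.62 on the log2 scale (adjusted p = 0.999). The ATP synthase subunit mt-Atp8 had 538 and 320 CPM in the knockout, 93.2 and 88.7 CPM in WT bilirubin and 64.5 and 13.7 CPM in WT vehicle (log2 against WT bilirubin 2.25 ± 0.54, adjusted p = 0.142). In the other cells it had 533 and 221 CPM in the knockout, 128 and 59.1 CPM in WT bilirubin and 73.5 and 41.0 CPM in WT vehicle. In the knockout, Cebpb was thus lower and mt-Atp8 higher than in WT bilirubin, in pericytes and in the other cells alike. With this spread the values cannot show that the changes were equal.

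Among the next genes by p none was called. Lcn2 had 13.8 and 10.3 CPM in the knockout and 62.2 and 237 CPM in WT bilirubin, and the calcium-binding protein S100a6 had 133 and 248 CPM against 271 and 1419 CPM. Sema3c, a secreted semaphorin, had 133 and 61.9 CPM in the knockout and 24.9 and 29.6 CPM in WT bilirubin, and the lubricating proteoglycan Prg4 had 78.2 and 103 CPM against 22.8 and 0 CPM. Fhad1 (11.5 and 30.9 against 66.3 and 133 CPM), the muscle-type kinase Speg (9.20 and 0 against 58.0 and 44.3 CPM) and the acyl-CoA dehydrogenase Acadvl (29.9 and 20.6 against 82.9 and 148 CPM) had adjusted p-values of 0.617 to 0.774. The adhesion molecule Cntn5 had 122 and 10.3 CPM against 18.6 and 14.8 CPM, and its groups overlapped.

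Pericyte genes were not called between the knockout and WT bilirubin either. Of the 26 further pericyte genes tested 0 passed and 22 had a negative fold change (median log2 -0.54, against 0.04 over all genes). As both comparisons share the WT bilirubin libraries, this does not stand apart from the positive values with bilirubin. Cspg4 had 129 and 61.9 CPM in the knockout and 164 and 310 CPM in WT bilirubin (log2 -1.07 ± 0.51, adjusted p = 1), and Rgs4 had 150 and 72.2 CPM against 122 and 473 CPM. Ndufa4l2 had 258 and 113 CPM against 307 and 281 CPM. Against WT vehicle, the 26 genes had a median log2 of 0.16 in the knockout, with 17 above 0 and 9 below.

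Of the functional lists, 0 genes passed between the knockout and WT bilirubin, where 0.079% of all genes passed, so that the counts say little about the lists. The medians of log2 fold change were -0.21 for 22 contractile and channel genes, 0.18 for 22 genes of signalling with the endothelium, -0.43 for 19 basement membrane genes, -0.37 for 16 transporters and 0.02 for 11 inflammatory mediators. They were -0.45 for 8 IL-6 and acute-phase genes, 0.14 for 9 interferon genes, 0.18 for 13 haem and redox genes, 0.09 for 21 immediate early genes, -0.16 for 10 glucocorticoid targets, 0.13 for 18 hypoxia and glycolysis genes and 0.30 for 13 mitochondrially encoded genes. Of contractile regulators, the myosin phosphatase subunit Ppp1r12a had 104 and 51.6 CPM in the knockout and 137 and 163 CPM in WT bilirubin. The list of signalling with the endothelium overlaps the rule genes, so its count and median are in part a description. Of signalling genes, the TGF-beta co-receptor Eng had 161 and 82.5 CPM against 82.9 and 59.1 CPM, and its target Id3 had 989 and 722 CPM against 580 and 414 CPM. Of matrix genes, Mfge8 had 196 and 72.2 CPM against 242 and 399 CPM and the laminin chain Lama2 had 166 and 72.2 CPM against 145 and 340 CPM. The cationic amino acid transporter Slc7a1 had 110 and 61.9 CPM against 39.4 and 29.6 CPM, and the efflux pump Abcc5 had 25.3 and 41.3 CPM against 47.7 and 103 CPM. The chemokine Cxcl12 had 1173 and 805 CPM in the knockout and 354 and 724 CPM in WT bilirubin, with 48.7% of the UMIs of knockout replicate 2 and 61.2% of those of WT bilirubin replicate 2 in 1 member each. The alarmin Il33 had 46.0 and 51.6 CPM against 16.6 and 0 CPM.

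Biliverdin reductase Blvra, which makes bilirubin from biliverdin, had 39.1 and 10.3 CPM in knockout members, 64.2 and 73.9 CPM in WT bilirubin members and 24.8 and 75.6 CPM in WT vehicle members. The antiviral genes Isg15 (154 and 82.5 against 95.3 and 0 CPM) and Bst2 (235 and 186 against 182 and 88.7 CPM) and the immediate early gene Fosb (52.9 and 82.5 against 87.0 and 118 CPM) were not called in the knockout against WT bilirubin. The glucocorticoid receptor Nr3c1 had 115 and 144 CPM in the knockout and 68.4 and 73.9 CPM in WT bilirubin, and its target Klf9 had 78.2 and 72.2 CPM against 112 and 163 CPM. Neither was called. Scgb3a1 had 23.0 and 10.3 CPM in the knockout and 85.0 and 73.9 CPM in WT bilirubin (log2 -2.03 ± 0.71, adjusted p = 1). Among lists of other cell types, all 6 oligodendrocyte genes tested (median 1.07), all 4 erythroid genes (1.53), all 12 endothelial genes (0.69) and 10 of 11 microglial genes (0.33) had positive fold changes, and 0 passed; their part in the values above was not tested.

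**Figure D4:**
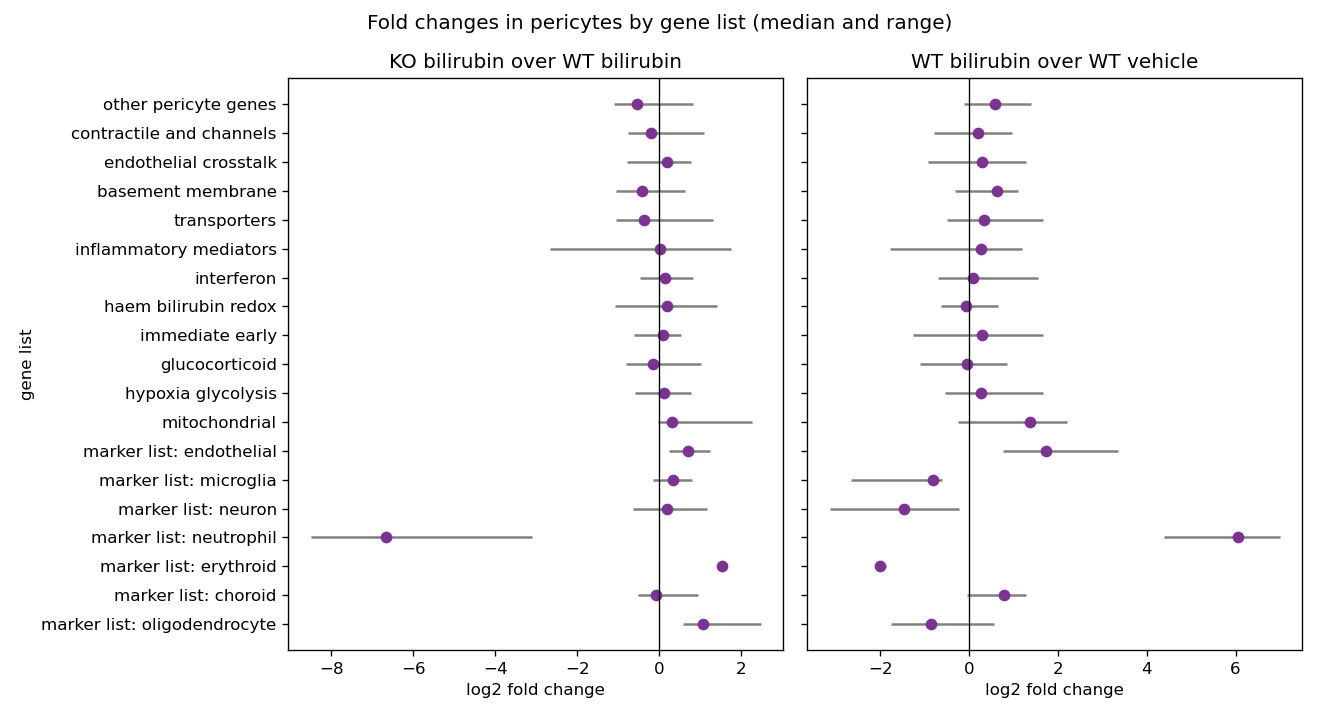
Log2 fold changes in pericytes by gene list, as the median (point) and the range of the genes tested (line), for KO bilirubin over WT bilirubin (left) and WT bilirubin over WT vehicle (right). The WT bilirubin libraries enter both panels with opposite sign. The endothelial signalling list overlaps the rule genes. The further pericyte genes and the contractile, endothelial signalling, basement membrane and transporter lists have medians between -0.54 and 0.64, the mitochondrial list 0.30 and 1.36, and the neutrophil list stands furthest out at -6.66 and 6.05.

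The third comparison, knockout with bilirubin against WT with vehicle, mixes genotype and treatment. Of 5065 genes 13 passed (0.257%), of which 13 were higher (0.257%) and 0 lower (0%), and 313 had an unadjusted p under 0.05. DESeq2 called 4 genes, which edgeR also called. Of the 13, 6 belong to the list of 12 endothelial markers (Cldn5, Kdr, Pltp, Ly6a, Ly6c1 and Itm2a), and mt-Atp8 is mitochondrially encoded. Cldn5 had 699 and 206 CPM in knockout members and 29.8 and 24.1 CPM in WT vehicle members (log2 fold change 4.02 ± 0.63, a description, since the rule used it). Kdr, the main VEGF receptor of endothelium, had 138 and 103 CPM against 14.9 and 10.3 CPM (3.21 ± 0.61, adjusted p = 0.0108). The endothelial transcription factors Sox17 and Sox18 had 46 and 52 UMIs in knockout members and 2 UMIs each in vehicle members, ratios of 21.3 (95% counting interval 5.57 to 181, adjusted p = 0.0233) and 24.1 (6.34 to 204, adjusted p = 0.0446). Egfl7, a protein that endothelium secretes, had 460 and 165 CPM against 49.6 and 44.7 CPM (2.69 ± 0.57, adjusted p = 0.0233).

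The other called genes had adjusted p-values of 0.00149 to 0.0472. Pltp had 1026 and 444 CPM in the knockout and 149 and 99.7 CPM in vehicle, and Pglyrp1 had 534 and 237 CPM against 89.3 and 37.8 CPM. Ly6a had 1088 and 330 CPM against 119 and 120 CPM, Ly6c1 had 989 and 340 CPM against 144 and 117 CPM, and Itm2a had 968 and 134 CPM against 114 and 55.0 CPM. Wfdc1 had 140 and 61.9 CPM against 9.92 and 20.6 CPM, and Cyyr1 had 45 UMIs against 3, a ratio of 13.9 (4.46 to 69.9). For mt-Atp8 the log2 fold change was 3.48 ± 0.58 (adjusted p = 0.00149). The next genes by p were Cx3cr1 (41.4 and 61.9 against 273 and 141 CPM, adjusted p = 0.0516), the Wnt effector Lef1 (255 and 92.8 against 54.6 and 20.6 CPM), the endothelial cadherin Cdh5 (133 and 30.9 against 19.8 and 6.87 CPM) and Kank3 (42 UMIs against 3), with adjusted p-values of 0.0532 to 0.0539 for the last 3. Of the 12 endothelial markers 6 rose, 0 fell and all 12 had a positive fold change (median log2 2.38, against 0.005 over all genes). Cldn5 is counted among the 6 and the 12 although the rule used it, so its part there is a description. Endothelial cells by the gate were 19.2% and 16.4% of kept cells in the knockout and 4.12% and 5.04% in WT vehicle, and the endothelial list in the other cells had 3249 and 3407 CPM against 974 and 730 CPM. Their part in the result was not tested. In members with none of Cldn5, P2ry12, Kl, Col1a1 and Dcn, 2 genes were called, both mitochondrially encoded (mt-Atp8 and mt-Nd4l). That set cannot call Cldn5, and it holds only 45 and 11 knockout members and 96 and 66 vehicle members. Between the knockout and WT bilirubin the groups overlapped for Kdr (138 and 103 CPM in the knockout, 47.7 and 118 CPM in WT bilirubin) and for Cdh5 (133 and 30.9 CPM in the knockout, 39.4 and 44.3 CPM in WT bilirubin). Without vehicle replicate 2, 3 genes were called, with only Cldn5 of the 13, and without knockout replicate 1, 5 were called, with only mt-Atp8 of the 13. Without vehicle replicate 1, WT bilirubin replicates 1 and 2 and knockout replicate 2 the numbers were 19, 23, 52 and 50.

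**Figure D5:**
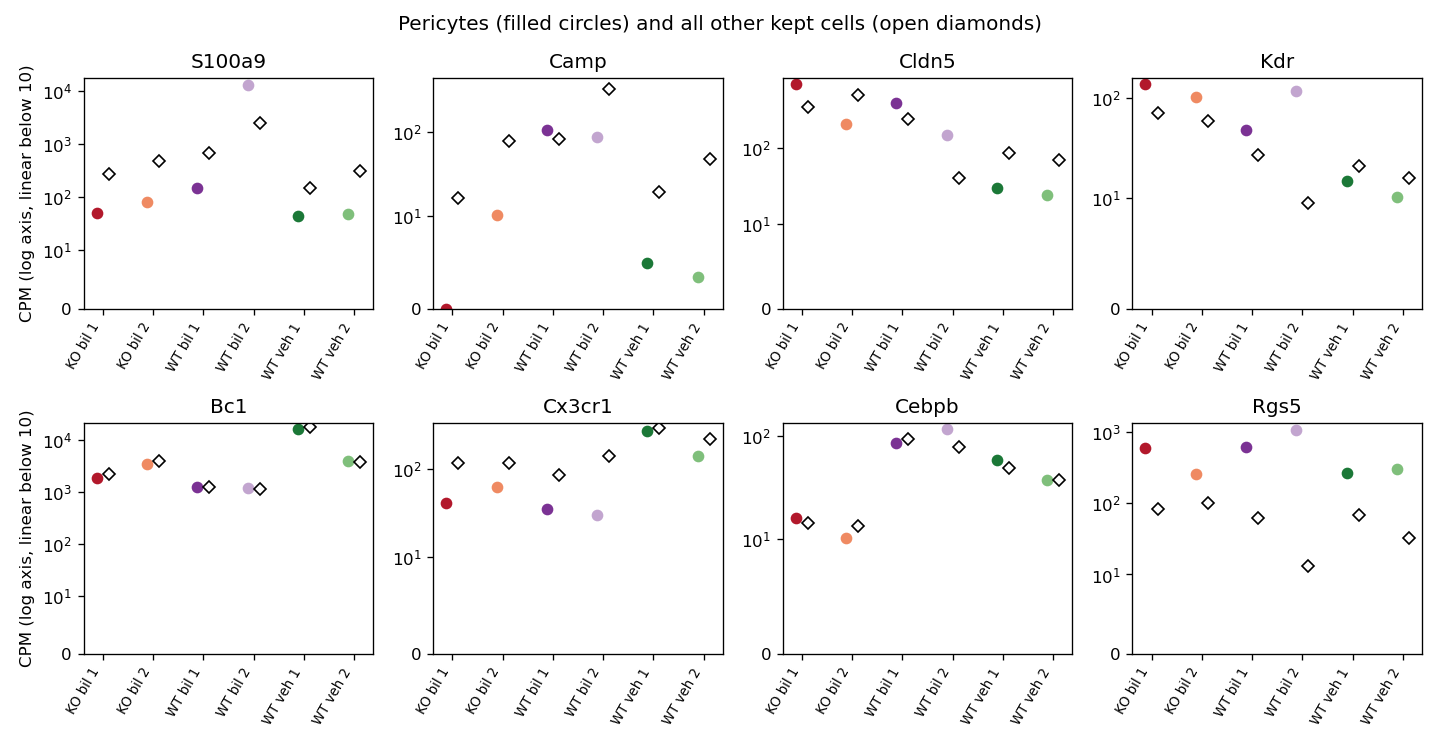
CPM of 8 genes in the summed pericytes (filled circles) and in all other kept cells (open diamonds) of each library, on an axis that is logarithmic above 10 CPM and linear below; labels as before. Bc1 and Cebpb lie at similar levels in both, S100a9 is higher in pericytes than in other cells in WT bilirubin replicate 2 alone (13186 and 2524 CPM), and Rgs5 lies above the other cells in all 6 libraries.

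Whether a change was particular to pericytes was tested as the change in members minus the change in the other cells of the same libraries. With bilirubin in wild type 0 genes passed (0%), 0 higher (0%) and 0 lower (0%), with 197 at an unadjusted p under 0.05 and a smallest adjusted p of 0.316. For the knockout against WT bilirubin 0 genes passed (0%), 0 higher (0%) and 0 lower (0%), with 127 at an unadjusted p under 0.05. Against the 9336 endothelial cells of the gate 0 genes passed in either comparison (0% in each direction), with 226 (bilirubin) and 170 (knockout) at an unadjusted p under 0.05. For Rgs5 with bilirubin the difference was 1.86 ± 0.61 on the log2 scale against the other cells (adjusted p = 0.999) and 0.78 ± 0.36 against endothelial cells. For Rgs5 in the knockout against WT bilirubin it was -2.39 ± 0.61 against the other cells (adjusted p = 0.532) and -1.23 ± 0.35 against endothelial cells. Both rest on the same WT bilirubin libraries, in which the other cells had 62.8 and 13.1 CPM of Rgs5. The call depends on the setting: against the other cells Rgs5 passed in 5 of 13 alternatives with bilirubin and in 6 of 13 for the knockout. With bilirubin it passed with no low-count filter and without vehicle replicate 2, WT bilirubin replicate 1, knockout replicate 1 or knockout replicate 2. For the knockout it passed with no low-count filter and without any library other than WT bilirubin replicate 2. Against endothelial cells it passed in 0 of 13 with bilirubin and in 1 of 13 for the knockout, without WT bilirubin replicate 1. With bilirubin the difference from other cells was -0.02 ± 0.24 for Bc1, -0.07 ± 0.25 for mt-Cytb and -1.22 ± 0.44 for Cx3cr1, none called. These counts moved when 1 library was left out: between 1 and 20 genes with bilirubin and between 0 and 61 for the knockout against the other cells, and between 0 and 62 and 0 and 70 against endothelial cells. The highest counts were without knockout replicate 1 (20 and 61) and without WT bilirubin replicate 1 (62 and 70).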

How the data were processed

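Droplet 3' libraries of mouse brain cells were analysed from the deposited counts, raw UMI counts per gene and cell that the authors made with no normalization. Gene names and barcodes come from other deposited tables, which hold no values. Per the submitters' processing notes, Scanpy 1.9.6 and Cell Ranger 8.0.0 were used, whereas the file headers of the matrices name Cell Ranger 9.0.1. The genome build is unclear, so no coordinates are given. No doublet caller was run: limits on UMIs and on foreign genes were tried instead. The members, gene lists and tests were chosen with earlier results of these data known.

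Member UMIs were summed per library (67646 to 482620) and tested with edgeR 4.0.16 in R 4.3.3: TMM, filterByExpr (5065 genes), a quasi-likelihood fit of group over all 6 libraries with 3 residual degrees of freedom, two-sided, adjusted by Benjamini and Hochberg at 0.05. Each SE is the fold change over the square root of F. Differences of changes used library as a block and part by group. Alternatives used DESeq2 1.42.0, other filters, scalings, cell limits and membership rules, and left out each library. Shares were tested by exact permutation with scipy 1.17.1. Endothelial cells had at least 3 of Cldn5, Flt1, Pecam1, Cdh5, Ly6c1, Slco1a4 and Itm2a, were no member and had fewer than 2 of Pdgfrb, Kcnj8, Vtn, P2ry12, Kl, Col1a1 and Dcn. Text genes were, per comparison, the 8 highest and 8 lowest called fold changes at a mean CPM of at least 20 without overlap, filled up to 16 by p, then the 3 smallest p of each list for the first 2 comparisons, the rule genes, Trpm2 and Cebpb, without predicted, ribosomal, mt- and haemoglobin genes by size. Genes of leading level and mt-Atp8 against vehicle were added after their values were seen. A few genes that this rule names are not reported here.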

Additional observations from a re-analysis of the deposited data

How the results depend on the processing

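The sets of calls were small and moved with the choices. For WT bilirubin against vehicle, the 9 calls became 14 with no low-count filter, 3 with only the 4 libraries compared, 5 with at least 4 rule genes, 0 with none of the excluded genes, 18 at most 5% mitochondrial UMIs, 3 at most 10000 UMIs and 3 among the genes above their level in all kept cells. For the knockout against WT bilirubin, the 4 calls became 7 with no filter and 0 with DESeq2, with at least 4 rule genes or at most 10000 UMIs. For the knockout against vehicle, the 13 calls became 24 with no filter, 4 with DESeq2, 2 with none of the excluded genes, 24 at most 10000 UMIs and 25 among the genes above all kept cells. Chosen after seeing the data, leaving out members with 2 neutrophil markers, which by construction removes the neutrophil calls, gave 3, 0 and 3 calls, and keeping members with Rgs5, Higd1b, Ndufa4l2 or Cox4i2 gave 0, 0 and 13. Differences from other cells gave 8 (bilirubin) and 12 (knockout) with no filter and 6 (knockout) with none of the excluded genes. Differences from endothelial cells gave 7 and 5 with no filter, 17 and 6 with none of the excluded genes, and 2 (bilirubin) with at least 4 rule genes. The cause was not tested. Leaving out each library gave 14 to 21, 1 to 10 and 3 to 52 calls in the 3 comparisons, 1 to 20 and 0 to 61 against other cells, and 0 to 62 and 0 to 70 against endothelial cells.

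With the replicate block the calls were 20, 6 and 18. Same-numbered libraries deviated together with a correlation of -0.14 (vehicle and WT bilirubin), 0.22 (vehicle and knockout) and -0.03 (WT bilirubin and knockout) over genes, and the labels state no pairing, so the numbers were not taken to pair libraries. With the crossed replicate block, added after seeing the data, 2 genes were called with bilirubin. The differences of changes already hold library as a block.

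The log2 ratio of shares was 0.00 for bilirubin (-0.71 to 0.48 leaving out a library), 0.42 for the knockout against WT bilirubin (-0.058 to 1.13, and -1.05 among vascular cells) and 0.42 against vehicle (0.24 to 0.63, -1.41 among vascular cells, -0.47 with none of the excluded genes, 0.65 at most 5% mitochondrial UMIs, and 0.73 with members that hold a marker outside the rule, chosen after seeing the data). Of the named genes, 1524 of the alternative values kept direction and side of the threshold, 125 lost the call and 71 gained it. Ly6c1 with bilirubin turned to -0.41 with none of the excluded genes, mt-Cytb to -0.10 without WT bilirubin replicate 1 (up to 3.05 leaving out another library), and Cntn5 in the knockout to -0.75 without knockout replicate 1 (up to 2.69). Limiting members to fewer than 2 markers of any other type left too few members for a fit. With 30 members in 2 libraries, low genes are below what the depth can show.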
